A study of Mus musculus with 2 samples.

Results

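PRDM genes encode a family of transcriptional regulators, and 9 of them were followed here in embryonic mouse midbrain: Prdm1, Prdm2, Prdm4, Prdm8, Prdm10, Prdm12, Prdm13, Prdm15 and Prdm16. They were chosen by name, as the rows of the gene tables whose identifiers carry these symbols in the mouse GENCODE annotation, and all 9 were found among 43346 genes. Further genes of the family were not analysed here. The study sequenced total RNA from dissected midbrain of healthy B6NCrl embryos, male and female together, at embryonic day 11.5. It holds 1 group without a treatment or other condition, in 2 biological replicates. Replicate 1 pooled 109 embryos and replicate 2 pooled 88 embryos, so animals cannot be told apart within a library. The input was 10 ng of RNA above 200 nt per library, to which ERCC spike-ins, synthetic RNAs of known amount, were added. Levels are in TPM (a relative transcript abundance corrected for length and scaled to the same total in each library), as the authors deposited them, and values are given for replicate 1 and then replicate 2.

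A PRDM protein typically carries a PR domain, a relative of the SET domain of histone methyltransferases, followed by zinc fingers of the C2H2 type that can bind DNA. Some members methylate histones themselves, and others act by recruiting histone methyltransferases, deacetylases or corepressors to their target genes. In the developing nervous system the family is known for dividing progenitor domains, for choosing between inhibitory and excitatory neuron fates and for the making of pain-sensing neurons. In other tissues its members direct germ cell, plasma cell and brown fat development.

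The 9 genes differ in the number of zinc fingers that their annotated coding sequences predict. A search of the translated GENCODE sequences for the spacing of cysteines and histidines of a C2H2 finger found 16 matches in the longest protein of Prdm15, which has 1174 residues. Prdm10 had 10 matches in 1135 residues, Prdm16 had 8 in 1276, and Prdm2 and Prdm4 had 6 each, in 1709 and 796 residues. Prdm1 and Prdm13 had 4 each, in 856 and 754 residues, Prdm12 had 3 in 365 and Prdm8 had 2 in 688. The members measured here therefore span short proteins with few fingers and long ones with many.

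Promoter windows were available for 8 of the 9 genes in the RefSeq table of build GRCm38.p6, as 250 bases before each annotated start, and Prdm2 had none. The 4 windows printed here end at the base before the gene's start in both RefSeq and GENCODE, and they belong to members whose levels ranged from among the highest to the lowest of the family. The sequences run 5′ to 3′ on the gene's own strand in lower case. Capitals mark the E-box CANNTG, the motif bound by basic helix-loop-helix factors such as the proneural proteins, which reads the same on both strands so that 1 search covers them. The windows are chr2:31639787-31640036 on the plus strand for Prdm12, chr16:97851851-97852100 on the minus strand for Prdm15, chr4:154636874-154637123 on the minus strand for Prdm16 and chr4:21685964-21686213 on the minus strand for Prdm13.
Prdm12: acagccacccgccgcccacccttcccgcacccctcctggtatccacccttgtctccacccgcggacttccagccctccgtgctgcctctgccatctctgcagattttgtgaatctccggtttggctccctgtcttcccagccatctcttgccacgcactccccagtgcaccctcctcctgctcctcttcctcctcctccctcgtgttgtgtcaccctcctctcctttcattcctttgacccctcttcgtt
Prdm15: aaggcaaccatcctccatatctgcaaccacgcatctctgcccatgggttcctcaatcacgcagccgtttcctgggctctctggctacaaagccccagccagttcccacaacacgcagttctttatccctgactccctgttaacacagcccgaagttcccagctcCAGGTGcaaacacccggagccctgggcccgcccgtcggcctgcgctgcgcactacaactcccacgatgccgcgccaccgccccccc
Prdm16: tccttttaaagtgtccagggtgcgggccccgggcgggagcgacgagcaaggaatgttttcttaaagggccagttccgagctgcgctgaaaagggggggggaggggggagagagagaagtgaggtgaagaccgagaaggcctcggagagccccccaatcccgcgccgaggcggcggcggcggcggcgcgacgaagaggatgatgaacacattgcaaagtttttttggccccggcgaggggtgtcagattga
Prdm13: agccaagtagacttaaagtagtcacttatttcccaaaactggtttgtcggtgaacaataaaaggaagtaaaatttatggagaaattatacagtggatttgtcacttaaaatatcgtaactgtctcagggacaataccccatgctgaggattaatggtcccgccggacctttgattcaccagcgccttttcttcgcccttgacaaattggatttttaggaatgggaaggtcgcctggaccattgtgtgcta
Of these 4 windows, the one of Prdm15 held 1 E-box and those of Prdm12, Prdm16 and Prdm13 held 0. Over all 11 windows of the members 7 held at least 1, against 66.22% of 32851 windows of the same length in the table. The windows differed in CpG dinucleotides, with 22 in Prdm16, 15 in Prdm15, 10 in Prdm12 and 7 in Prdm13, against a median of 6 over all windows. A match is a description of the letters and not a binding site, and 0 matches says only that these letters are not in these 250 bases.

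Of the 9 PRDM genes, 6 reached 1 TPM in both libraries, namely Prdm4, Prdm2, Prdm12, Prdm15, Prdm16 and Prdm10. The same level was reached by 32.1% of all 43346 genes, by 58.2% of 21474 protein-coding genes and by 88.1% of 394 genes whose symbols start with Zfp, which are mostly other zinc finger genes. The median over the 9 genes was 4.88 TPM in replicate 1 and 6.02 TPM in replicate 2. The median over the Zfp genes was 8.49 and 8.34 TPM, and that over protein-coding genes was 3.44 and 3.47 TPM. The PRDM genes together held 65.4 and 68.0 TPM, of which Prdm4 alone took 39.9% and 38.4%. In bulk tissue, fewer cells of a type and less RNA per cell cannot be told apart, so a low level does not say how many cells expressed a gene.

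**Figure D1:**
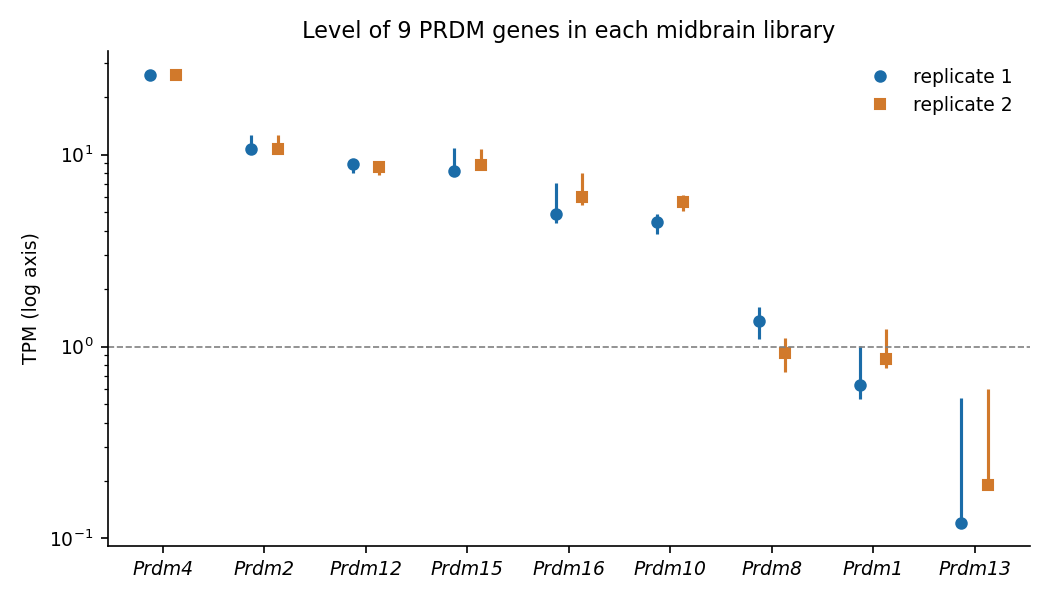
Level of each of the 9 PRDM genes in TPM on a log axis, with a circle for replicate 1 and a square for replicate 2, vertical lines for the deposited interval of each library and a dashed line at 1 TPM. Prdm4 stands alone at 26.1 TPM, 5 genes lie between 4.44 and 10.73 TPM, Prdm8 and Prdm1 lie near 1 TPM, and Prdm13 lies at 0.12 and 0.19 TPM.

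Prdm4 and Prdm2, regulators linked to growth control and found in many tissues, were the most abundant members in both libraries. Prdm4 (ENSMUSG00000035529, mm10 chromosome 10, 85891966 to 85917142, minus strand) encodes a protein that binds the neurotrophin receptor p75 and recruits the arginine methyltransferase PRMT5 in mouse neural stem cells. It had 26.12 and 26.14 TPM (26.1 ± 0.0141, SD, n = 2) on 2670 and 3196 counts. This placed it above 76.3% and 76.2% of protein-coding genes. Prdm2 (ENSMUSG00000057637, chromosome 4, 143107391 to 143212995, minus strand), also called RIZ, encodes a histone H3 lysine 9 methyltransferase that binds the retinoblastoma protein. It had 10.69 and 10.73 TPM (10.7 ± 0.0283, SD, n = 2) on 1979 and 2386 counts. Prdm4 was 2.44-fold above Prdm2 in each library, and their intervals were apart in both (24.6 to 26.5 against 10.3 to 12.6 TPM in replicate 1). These intervals come with the deposited tables, belong to the posterior mean estimate of TPM, and have no stated level.

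Prdm12, best known from pain-sensing neurons and from a ventral progenitor domain of the hindbrain and spinal cord, was close to the level of Prdm2. Prdm12 (ENSMUSG00000079466, chromosome 2, 31640037 to 31655795, plus strand) had 8.89 and 8.66 TPM (8.78 ± 0.163, SD, n = 2) on 565 and 658 counts. The 2 libraries lay closer together than the interval of either, which ran from 7.99 to 9.42 TPM in replicate 1 and from 7.86 to 9.17 TPM in replicate 2. Its counts were not whole, and it shares 200 exon bases with the antisense gene Gm13425 (chromosome 2, 31633453 to 31640589, minus strand), which had 2.22 and 1.78 TPM on 314 and 301 counts. The sources used here do not give whether the counting used strand, so reads in the shared bases cannot be assigned with certainty.

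Prdm15, Prdm16 and Prdm10 formed the middle of the family. Prdm15 (ENSMUSG00000014039, chromosome 16, 97791467 to 97851850, minus strand), which in mouse embryonic stem cells controls Rspo1 and Spry1, had 8.26 and 8.79 TPM (8.53 ± 0.375, SD, n = 2) on 1046 and 1439 counts. Prdm16 (ENSMUSG00000039410, chromosome 4, 154316125 to 154636873, minus strand), a regulator of brown fat and of neural stem cells, had 4.88 and 6.02 TPM (5.45 ± 0.806, SD, n = 2) on 554 and 805 counts. Prdm10 (ENSMUSG00000042496, chromosome 9, 31280538 to 31381723, plus strand), whose human counterpart activates FLCN, had 4.44 and 5.67 TPM (5.05 ± 0.870, SD, n = 2) on 309 and 465 counts. All 3 were lower in replicate 1 than in replicate 2. For Prdm15 the TPM of the libraries differed by less than the counts scaled to library size (26.9 and 31.3 CPM), and its effective length, which depends on the transcripts it is made of, was 4728 and 5110 bases.

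Prdm8 and Prdm1 lay near 1 TPM, with Prdm8 higher by TPM in both libraries and the intervals of the pair overlapping in replicate 2. By posterior mean, to which the intervals belong, Prdm8 had 1.34 and 0.91 TPM and Prdm1 0.75 and 0.98 TPM. The order thus turned in replicate 2. Prdm8 (ENSMUSG00000035456, chromosome 5, 98167198 to 98188991, plus strand), a repressor that works with the factor BHLHE22 in the mouse forebrain, had 1.36 and 0.93 TPM (1.15 ± 0.304, SD, n = 2) on 110 and 90 counts. Prdm1 (ENSMUSG00000038151, chromosome 10, 44437177 to 44528501, minus strand), also called Blimp1, which is needed for primordial germ cells and plasma cells, had 0.63 and 0.86 TPM (0.745 ± 0.163, SD, n = 2) on 86 and 140 counts. Prdm8 was thus above 1 TPM in replicate 1 alone, and Prdm1 in neither library.

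Prdm13 was the lowest member. Prdm13 (ENSMUSG00000040478, chromosome 4, 21677480 to 21685963, minus strand) acts downstream of PTF1A in the dorsal neural tube, where it favours inhibitory over excitatory neurons. It had 0.12 and 0.19 TPM (0.155 ± 0.0495, SD, n = 2) on 9 and 15 counts. Its 9 counts in replicate 1 correspond to 0.231 CPM and its 15 counts in replicate 2 to 0.326 CPM, while 3 counts, the limit that a count of 0 would allow, correspond to 0.0772 and 0.0653 CPM. Its TPM in replicate 1 lay below its own deposited interval of 0.126 to 0.536 TPM, and the posterior mean was 0.31 and 0.38 TPM, so its level is uncertain by more than the libraries differ.

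Of the 36 pairs of members, 30 were separated by their intervals the same way in both libraries. The 6 others included 4 pairs of neighbours in level. Prdm2 with Prdm15 (TPM ratio 1.29 and 1.22), Prdm12 with Prdm15 (1.08 and 0.985) and Prdm16 with Prdm10 (1.10 and 1.06) overlapped in both libraries. Prdm12 with Prdm16 (1.82 and 1.44) and Prdm8 with Prdm1 (2.16 and 1.08) were apart in replicate 1 alone. Prdm1 with Prdm13 (5.25 and 4.53) was apart in replicate 2 alone. The order of Prdm12 and Prdm15 by TPM turned between the libraries. The largest step between neighbours that held in both libraries was that from Prdm10 down to Prdm8, 3.26-fold and 6.10-fold.

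The libraries were compared to show how far the levels vary between pools of the same tissue. They held 41760197 and 49256468 expected counts in all, 38884247 and 45975100 of them on genes, and the common coefficient of variation between them was 7.80% over 14052 genes. No PRDM gene differed at least 2-fold between the libraries beyond sampling noise (0 of 9 at adjusted p under 0.05, two-sided exact binomial test, Benjamini-Hochberg adjustment over 17148 genes), against 2.80% of all genes tested. The test compares 2 libraries and not 2 conditions, and its p-values cover counting error only. At unadjusted p under 0.05 there were 5 of 9, against 43.4% of all genes tested. With a spread between pools allowed for, as a coefficient of variation set to 0.1 in edgeR's exact test, 0 of 9 passed with the 2-fold minimum, against 0.904% of all genes.

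Without the 2-fold minimum, 4 of the 9 genes passed the binomial test, against 34.9% of all genes tested. None of the 4 passed edgeR's exact test with the coefficient of variation set to 0.1, where adjusted p was 0.876 for Prdm8 and 1 for each of the other 3, and 0.962% of all genes passed. Prdm8 was higher in replicate 1, with a log2 ratio of replicate 1 over replicate 2 of 0.53 (exact binomial adjusted p = 0.0328), where 17.0% of genes passed in that direction. Prdm10 (log2 ratio -0.34, exact binomial adjusted p = 0.00576), Prdm16 (-0.29, adjusted p = 0.00145) and Prdm15 (-0.21, adjusted p = 0.00163) were lower in replicate 1, where 18.0% of genes passed. Prdm1 had a log2 ratio of -0.45 (exact binomial adjusted p = 0.0650) and Prdm13 one of -0.45 (adjusted p = 0.699), and neither passed. For Prdm4, Prdm2 and Prdm12 the log2 ratios were -0.01, -0.02 and 0.03, the smallest of the 9 in size. With spike-in scaling, which moves the median log2 ratio of all genes to -0.07 in place of -0.01, Prdm8 no longer passed (exact binomial adjusted p = 0.0581), Prdm1 did (adjusted p = 0.0310), and the sign of Prdm12 turned (-0.03).

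Judged by the deposited intervals, Prdm10 was the 1 member whose libraries were apart, from 3.88 to 4.90 TPM in replicate 1 and from 5.07 to 6.15 TPM in replicate 2. Intervals were apart for 20.0% of all genes tested. The median log2 ratio over the 9 genes was -0.21 and their median absolute log2 ratio 0.29, against -0.01 and 0.14 over all genes tested. Between the same libraries, 2 of 4 dorsal forebrain markers were at least 2-fold lower in replicate 1, among them Tbr1 with 39 and 189 counts. Over all genes tested 2.80% differed 2-fold in either direction. Emx1 and Emx2 of the same list had log2 ratios of -0.38 and -0.10 and did not pass. The hypothalamic markers went different ways. Rax was at least 2-fold higher in replicate 1 (47 and 12.8 counts), while Nkx2-1 had a log2 ratio of -0.38 and Sim1 one of 0.14. The part of these neighbouring tissues in the differences of Prdm8, Prdm10, Prdm15 and Prdm16 was not tested.

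**Figure D2:**
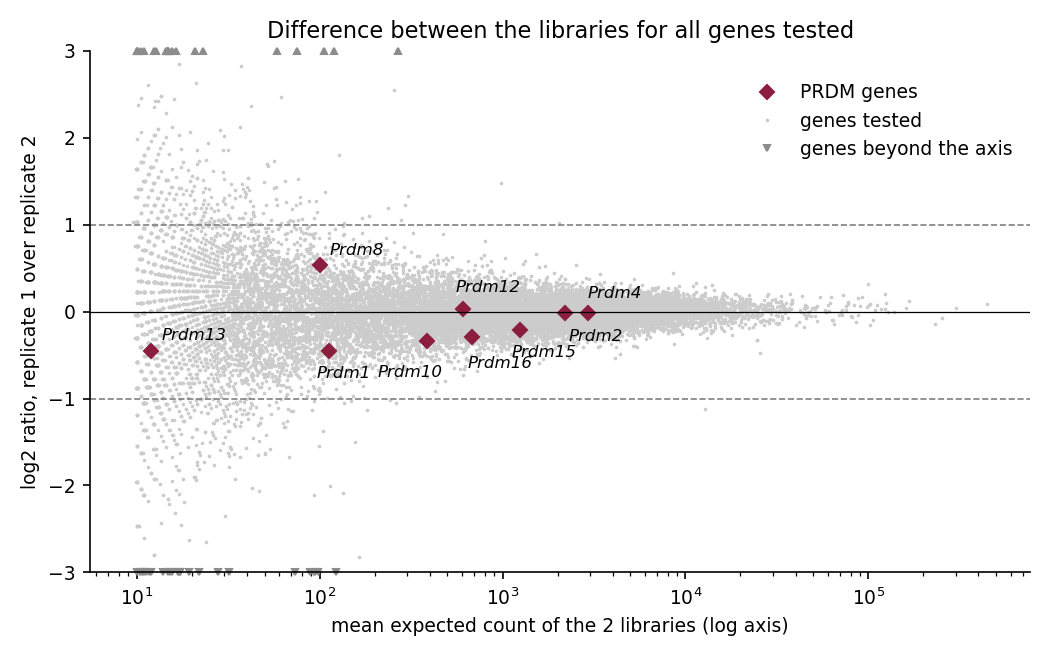
Log2 ratio of replicate 1 over replicate 2 against the mean expected count on a log axis, for the 9 PRDM genes (diamonds) and all 17148 genes tested (grey points), with dashed lines at 2-fold in either direction. All 9 PRDM genes lie within those lines, and 48 genes beyond a log2 ratio of 3 in either direction are drawn as triangles at the edge.

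The 9 genes have 42 annotated transcripts in the deposited tables, and in several members the estimated share of each transcript, the IsoPct in percent of the gene, was divided. Prdm4, Prdm8 and Prdm12 have 1 transcript each. Of the 6 others, 4 had the same leading transcript in both libraries (Prdm1, Prdm2, Prdm10 and Prdm13), and Prdm15 and Prdm16 did not. Among the 4 of these 6 that reached 1 TPM in both libraries, 2 kept the leading transcript, against 91.4% of 9585 such genes. By posterior mean shares all 4 did, against 91.1%, since Prdm15-203 (23.4% and 30.3%) and Prdm16-207 (22.2% and 27.2%) then led in both libraries. Of the 42 transcripts, 11 had 0 counts in both libraries, and for 0 of the 42 did the intervals of the libraries lie apart.

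**Figure D3:**
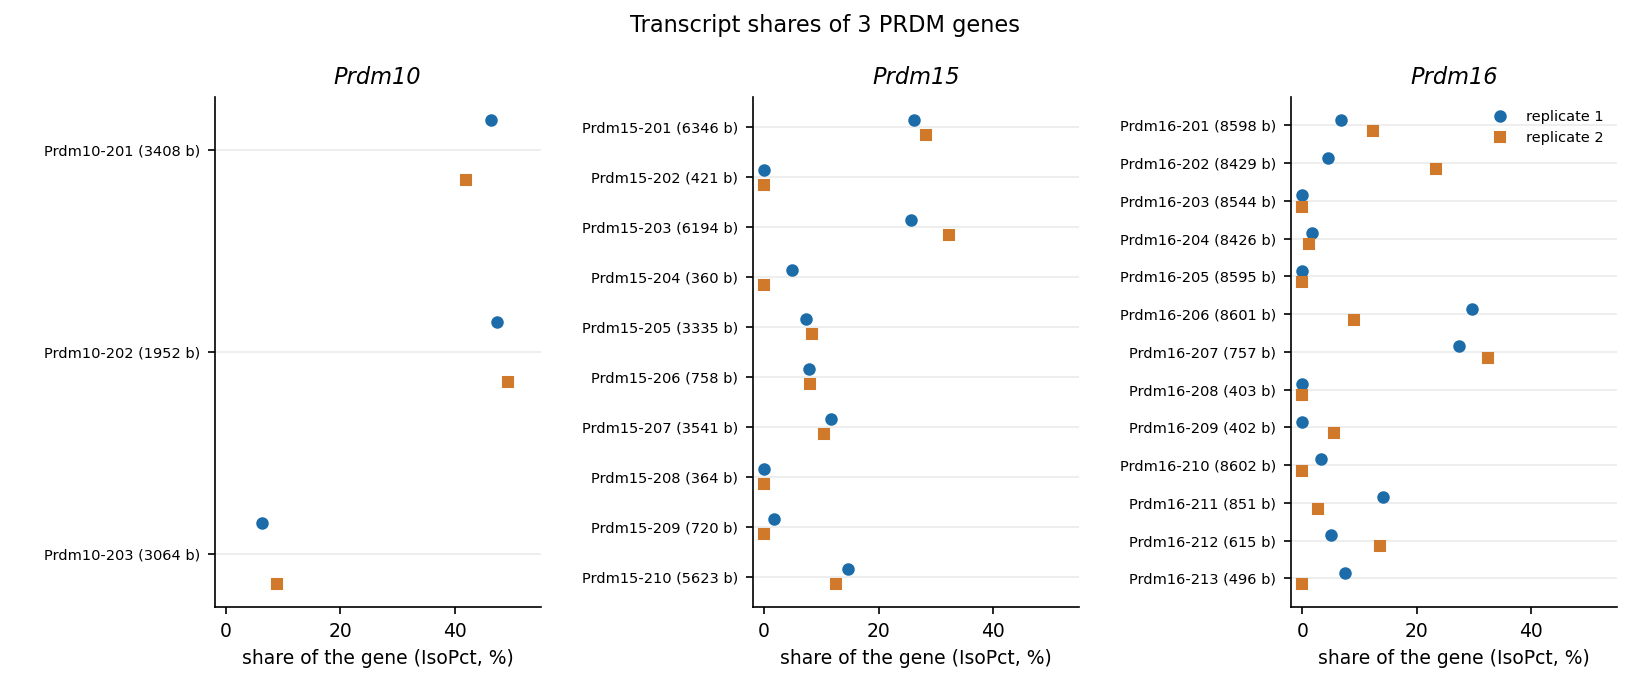
Share of each annotated transcript (IsoPct, percent of its gene) of Prdm10, Prdm15 and Prdm16 in replicate 1 (circles) and replicate 2 (squares), with the transcript length in bases after each name. Prdm10-201 and Prdm10-202 lie close to each other in both libraries, Prdm15-201 and Prdm15-203 likewise, and Prdm16-202 and Prdm16-206 trade places between the libraries.

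Prdm2 is known for a long form with the PR domain, RIZ1, and a shorter form without it, RIZ2. Prdm2-201, which encodes 1709 residues and 6 zinc finger matches, made up 95.64% and 96.08% of Prdm2. The 2 other coding transcripts, Prdm2-202 and Prdm2-203, share its coding start, have an incomplete coding end, and held 6.46 and 2.92 counts and 0 and 3.72 counts. All 3 annotated coding transcripts thus begin coding at the same base, and none of them starts its coding sequence further downstream.

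By estimated share, Prdm10 was divided almost evenly between a long and a short coding transcript as annotated. Prdm10-202, with 1952 bases, encodes 341 residues with 0 zinc finger matches and made up 47.35% and 49.21% of the gene. Prdm10-201, with 3408 bases, encodes 1135 residues with 10 matches and made up 46.39% and 41.93%. The long transcript held more counts, 183 and 252, than the short one, 104 and 166, and the order by share is opposite because shares are per transcript and corrected for length. The 2 shares lay closer to each other in replicate 1 than in replicate 2. As annotated, Prdm10-201 starts at its first coding base (31315107) and has 3 bases after the coding sequence. Prdm10-202 starts at base 31280538, before its coding start, and has 678 bases after the coding sequence. The shares depend on these annotated ends, since Prdm10-201 holds almost no sequence outside its coding part.

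Prdm15 had 2 long coding transcripts with different coding starts. Prdm15-201 begins coding at base 97851119 and made up 26.18% and 28.29%, and Prdm15-203 begins at 97839959 and made up 25.70% and 32.26%. Both hold 16 zinc finger matches. Transcripts not annotated as protein-coding made up 48.1% and 39.5% of the gene, among them Prdm15-210, which is annotated as a target of nonsense-mediated decay (14.67% and 12.53%), and Prdm15-207, which retains an intron (11.77% and 10.51%). The protein-coding transcripts summed to 4.28 and 5.33 TPM, against 8.26 and 8.79 TPM for the whole gene. By coding transcripts alone Prdm15 thus lay below Prdm12, whose 1 transcript is coding (8.89 and 8.66 TPM), while their whole-gene levels were not separated.

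For Prdm16 the long transcripts as a group were steady, and the shares among them were not. The 7 transcripts of 8426 to 8602 bases together made up 45.9% and 45.9% of the gene (45.9 ± 0.0566, SD, n = 2) and took 91.9% and 92.3% of its counts. Within them, Prdm16-206 had 330 and 148 counts, and Prdm16-202, which encodes 1178 residues in place of 1276, had 49.3 and 374 counts. These transcripts share most of their sequence, so reads are split among them by estimation, and the intervals of the libraries overlapped for each. The 6 short transcripts of 402 to 851 bases made up 54.1% and 54.2% by share on 8.07% and 7.66% of the counts. The leading transcript was Prdm16-206 in replicate 1 (29.71%) and Prdm16-207, a fragment of 757 bases, in replicate 2 (32.38%), the second on 41.1 counts.

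Prdm1 and Prdm13, the low members, each had the same leading transcript in both libraries by maximum likelihood, that of Prdm13 on few counts. Prdm1-201, encoding 856 residues, made up 90.94% and 93.73%, and Prdm1-202, encoding 823 residues, made up 9.06% and 6.27%. Prdm13-201 took all 9 counts of Prdm13 in replicate 1 and 11.6 of 15 counts in replicate 2, and 3.45 counts were assigned there to Prdm13-204, which retains an intron. At 9 and 15 counts the posterior mean shares of Prdm13-201 were 17.9% and 14.3%. Those of Prdm13-206, which had 0 counts in both libraries, were higher at 25.5% and 23.3%. The makeup of Prdm13 was thus not detectable at this depth.

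Other genes lie across some members. Prdm8 shares 1411 exon bases with the antisense gene A730035I17Rik, which had 0 counts in both libraries. Prdm16 holds B230104I21Rik on the opposite strand with 109 shared exon bases (1.02 and 0 counts), and Prdm10 shares 129 exon bases with 4930517E14Rik, for which no value was used here. Of the 3 overlapping genes with shared exon bases and a value, Gm13425 beside Prdm12 had more than 2 counts and the other two did not.

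Genes that PRDM proteins work through were abundant. Of 15 cofactors, 14 reached 1 TPM in both libraries, against 58.2% of protein-coding genes, with a median of 43.6 and 46.9 TPM. Between the libraries 0 of 15 differed 2-fold, against 2.80% of all genes tested. The deacetylase gene Hdac2 (327 and 339 TPM), the corepressor gene Ctbp1 (312 and 342 TPM), whose protein binds PRDM16, and Hdac1 (172 and 180 TPM) were highest. Prmt5, whose protein is recruited by PRDM4 and PRDM1, had 104 and 106 TPM. The H3 lysine 9 methyltransferase genes Ehmt1 (65.7 and 67.3 TPM) and Ehmt2 (43.6 and 46.9 TPM) encode partners of PRDM16 and of PRDM1 and PRDM12. Rb1, whose protein binds PRDM2, had 36.2 and 30.9 TPM. Each of these 7 genes exceeded the level of Prdm4, the highest PRDM gene. The 1 cofactor gene that did not reach 1 TPM was Bhlhe22, whose protein is the partner of PRDM8, with 0.83 and 0.93 TPM. Without the 2-fold minimum 6 cofactor genes passed as lower in replicate 1 and 0 as higher (exact binomial test), against 18.0% and 17.0% of all genes tested. That test covers counting error only.

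Of 11 regulators and targets tied to PRDM genes in the neural tube, 9 reached 1 TPM in both libraries, against 58.2% of protein-coding genes. The ventral regulators Dbx1 (128 and 140 TPM) and Nkx6-1 (6.20 and 5.66 TPM), which in frog embryos form a network with Prdm12, were both present, and En1, a gene that Prdm12 favours in frog V1 interneurons and that also marks the midbrain, had 4.94 and 6.29 TPM. Cdh11, a gene repressed by PRDM8 and BHLHE22 in mouse forebrain, had 77.9 and 71.7 TPM. Around Prdm13 the levels were low: its upstream regulator Ptf1a had 0.24 and 0.27 TPM on 9 and 12.2 counts, and its repression targets Tlx1 and Tlx3 had 0.25 and 0.21 TPM and 1.46 and 2.22 TPM. Of the 10 tested genes in the list 0 differed 2-fold between the libraries, against 2.80% of all genes tested. Without that minimum 1 was higher and 5 were lower in replicate 1 (exact binomial test), against 17.0% and 18.0% of all genes tested.

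**Figure D4:**
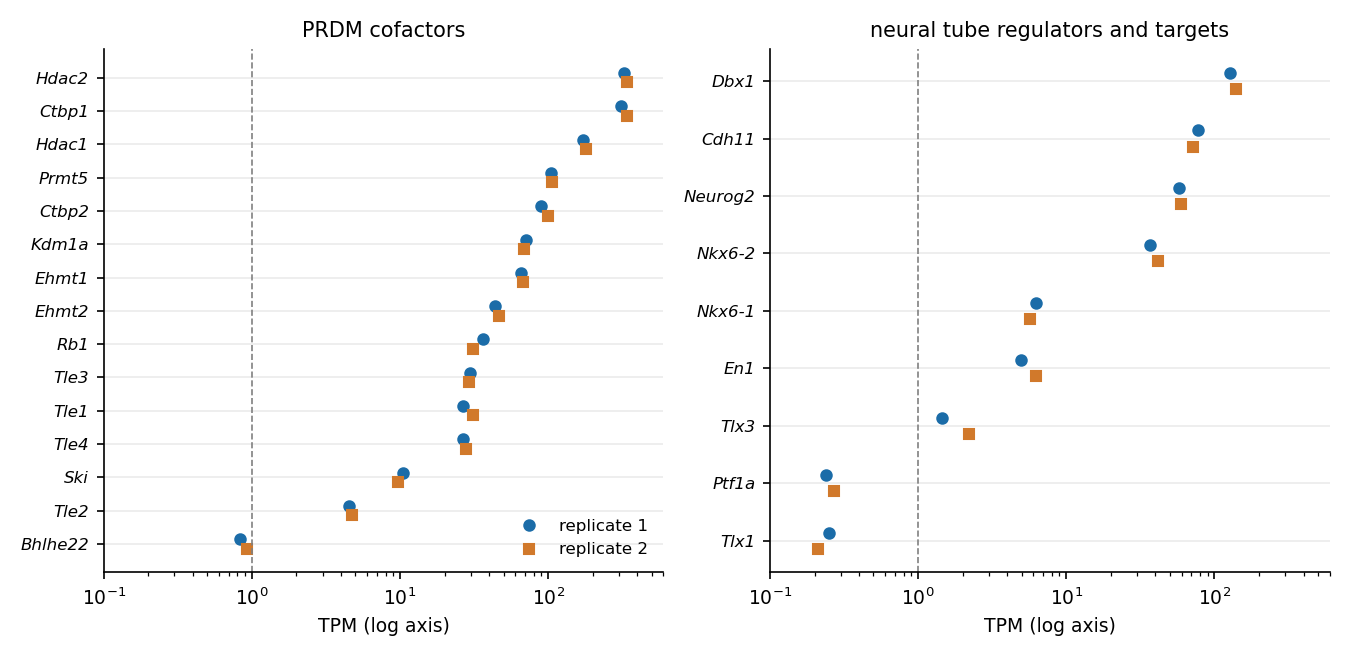
Level in TPM on a log axis of 15 cofactor genes (left) and 9 of the 11 neural tube regulators and targets (right) in replicate 1 (circles) and replicate 2 (squares), with a dashed line at 1 TPM. Bhlhe22 is the 1 cofactor gene below the line in both libraries, and Ptf1a and Tlx1 are the 2 genes below it on the right.

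Of 8 targets known from other tissues, 6 reached 1 TPM in both libraries, against 58.2% of protein-coding genes. Flcn, activated by PRDM10 in human cells, had 21.03 and 21.78 TPM, Myc, repressed by PRDM1 in B cells, had 10.6 and 9.77 TPM, and Rspo1, a PRDM15 target in mouse embryonic stem cells, had 6.85 and 9.12 TPM. The brown fat gene Ucp1, a target of PRDM16, had 0 and 3 counts. Of the 7 tested, 0 differed 2-fold between the libraries and 1, Rspo1, was lower in replicate 1 without that minimum (log2 ratio -0.42, exact binomial adjusted p = 0.000258).

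The dissected tissue carried its own markers, and markers of other cells and neighbouring tissues were found at varied levels. All 8 midbrain markers reached 1 TPM, led by Otx2 (169 and 171 TPM), Cnpy1 (98.9 and 101 TPM) and Pax3 (31.7 and 29.3 TPM). For this and the lists below, the share of protein-coding genes at 1 TPM in both libraries was 58.2%. For Prdm12, 2 of 7 sensory ganglion and neural crest markers reached 1 TPM in both libraries. The list summed to 5.62 and 6.60 TPM, with Avil at 0.84 and 1.23 TPM, Sox10 at 0.73 and 0.49 TPM and the nociceptor channel gene Scn10a at 0 and 2 counts. For Prdm1, 1 of 4 germ cell markers reached 1 TPM, Nanos3 (1.89 and 2.28 TPM), with Dppa3 at 0 and 2 counts and a sum of 2.8 and 3.0 TPM. Surface epithelium, another site of Prdm1, had 6 of 7 markers at 1 TPM, led by Krt8 (7.69 and 8.47 TPM), with a sum of 26.3 and 27.1 TPM. Endothelial (5 of 5, sum 93.0 and 93.9 TPM) and macrophage markers (5 of 5, sum 60.1 and 63.3 TPM) were present throughout. For Prdm16, which choroid plexus and dorsal forebrain also express, 1 of 3 choroid plexus markers, Folr1 (8.89 and 9.53 TPM), and 2 of 4 dorsal forebrain markers, Emx2 (9.33 and 9.36 TPM) and Emx1 (2.09 and 2.79 TPM), reached 1 TPM. The choroid plexus list summed to 10.2 and 10.6 TPM, most of it Folr1, with Ttr at 0.93 and 0.56 TPM and Clic6 at 0.36 and 0.55 TPM. The dorsal forebrain list summed to 12.1 and 14.5 TPM. The hypothalamic list had 2 of 3, led by Nkx2-1 (4.27 and 5.40 TPM), and the hindbrain list had 0 of 4 with a sum of 0.30 and 0.22 TPM. Whether each of these cell types was in the tissue, and its part in the PRDM levels, was not tested.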

How the data were processed

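Each library was quantified separately and pools were not merged. The authors deposited an expected count (an estimated read number, whole or not) of every gene and transcript, per the file headers, together with TPM and FPKM, each as a maximum likelihood and a posterior mean value, and a percent share of each transcript in its gene. The authors' interval bounds around TPM are a signal without a fixed total. TPM was scaled over all entries, spike-ins included, which took 15.2% and 14.8% of it. Assembly mm10 is given per the labels and annotation M4 by notes deposited with the files, and the sources used here name neither the aligner nor the quantifier. Per the labels' protocols a Smart-seq method that amplifies cDNA was cited, so reads are not independent molecules. Each interval rests on the reads of its own library and does not cover the spread between pools. Intervals could be wide where transcripts share sequence, as for Prdm15-201 in replicate 1 (0.715 to 3.30 TPM on 362 counts).

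Symbols, coordinates and coding sequences came from GENCODE M21, a later annotation of that assembly, matched on identifiers stripped of their version for 42462 of 43346 genes. Of the members' 42 transcripts 40 had the same length there, and Prdm8-201 and Prdm4-201 did not. Beside the genes, 96 spike-in rows, with 6.89% and 6.66% of counts, and 26248 rows with bare numeric identifiers, with 4.44 and 13.25 counts, entered neither gene totals nor tests. Zinc finger matches are C, 2 to 4 residues, C, 12 residues, H, 3 to 5 residues, H. Pairs were called separated where their intervals lay apart in both libraries with the same gene higher. Libraries were compared on rounded expected counts with a two-sided exact binomial test against TMM-scaled totals (edgeR 4.0.16, R 4.3.3), for genes whose counts summed to 20 or more, with Benjamini-Hochberg adjustment and calls at adjusted p under 0.05 and 2-fold (prior count 1). In simulated counts for this comparison 100 genes at 3-fold and 100 at 8-fold among 17163 were all recovered, with 3 false calls. The changed genes were drawn from those with a summed count of at least 100. The simulation drew no variation beyond sampling noise, as the binomial test assumes. It thus does not cover Prdm13, which had fewer counts, or changes near 2-fold. The replicates come from separate pools, and no test over conditions was possible. Alternatives were spike-in or total scaling, size factors of DESeq2 1.42.0, other thresholds, FPKM and posterior means. Other software was Biopython 1.88, scipy 1.17.1, numpy 2.4.6, pandas 2.3.3 and matplotlib 3.10.9 in Python 3.11.15.

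The members and lists were chosen with earlier results of these data known. The rule for named genes takes the 9 members and, of each other list, the 3 genes of highest mean TPM and those with 0 counts in both libraries. Further list genes with a known tie to a member, marker genes that differed between the libraries and overlapping genes were named after their values were seen. Some genes of these lists are not reported here.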

Additional observations from a re-analysis of the deposited data

How the results depend on the processing

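The count of 6 PRDM genes at 1 TPM in both libraries was 6 with posterior mean TPM, FPKM, a 2 TPM threshold or protein-coding transcripts alone (the last chosen after seeing the data), 7 after rescaling without spike-ins, which adds Prdm8, and 8 at 0.5 TPM, which adds Prdm8 and Prdm1. In single libraries it ranged from 6 to 7. Separated pairs numbered 30 with FPKM intervals, 29 at 1.5-fold between posterior means, and 31 to 32 in single libraries. The count of PRDM genes differing 2-fold between the libraries was 0 under each scaling, filter and test tried. With no fold minimum 4 passed the binomial test under each of the 4 scalings, and 0 passed edgeR's exact test with the assumed coefficient of variation. With spike-in scaling 215 of all genes tested were higher and 258 lower in replicate 1, in place of 257 and 224, and the numbers of genes passing were 155 of 17148 with the assumed coefficient of variation, 82 of 14065 at a summed count of at least 100 and 651 of 23744 with no minimum. The leading transcript was the same for 4 of 6 genes, for 6 with posterior mean shares and for 3 where it had to lead by 10 percentage points in both libraries. It compares the libraries, so no value without a replicate could be given. No paired analysis was possible because there is 1 group. Depth limits Prdm13 (9 and 15 counts) most, then Prdm8 and Prdm1.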
